A study of Mus musculus with 8 samples.

Results

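The multi-domain Bcl2 family was followed in the lactating mammary gland of mice with and without Th-POK, a zinc finger transcription factor encoded by Zbtb7b. The family was taken as 7 genes, 4 guardians (Bcl2, Bcl2l1, Bcl2l2 and Mcl1) and 3 pore formers (Bax, Bak1 and Bok), and a probe belonged to a member when its transcript accession mapped to that gene symbol. Probes were found for 6 of the 7 genes, among 18749 genes with a probe and 14137 genes tested. No probe mapped to Bok, which is not analysed here. No. 4 mammary glands came from female C57/Bl6 mice at lactation day 1, from 4 wild-type (WT) dams and 4 Th-POK knockout (KO) dams. The dams were age matched, but the labels give no age. The knockout was not restricted to the epithelium, and RNA came from the whole gland, so that epithelial, fat, stromal and immune cells all contributed. Each sample was hybridized to 1 one-colour Agilent mouse array, and values are log2 fluorescence signals after quantile normalization between the 8 arrays, called log2 signal from here on. Such a signal depends on the probe as well as on the RNA, so levels were compared between genotypes and never between genes.

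Proteins of this family decide whether the outer membrane of the mitochondrion is permeabilized. Guardians (the proteins Bcl-2, Bcl-xL, Bcl-w and Mcl-1) hold the pore formers Bax and Bak in check, BH3-only proteins bind guardians or activate pore formers, and an open pore releases cytochrome c, which starts the caspase cascade. In the mammary gland, Mcl-1 is known to keep the secretory epithelium alive. Bax is known for its part in the death of that epithelium when milk stasis starts involution. The comparison asked whether transcripts of guardians and pore formers differed between WT and KO glands at the start of lactation.

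The knockout was visible on the arrays. Zbtb7b had a log2 signal of 9.90, 10.42, 10.13 and 10.23 in WT samples 1 to 4 and lay between 1.55 and 1.65 on the KO arrays, where it was not well above background on any array. Its signal was at least 81.5-fold lower in KO glands (limma, adjusted p = 5.81e-09). Between 66.8% and 75.3% of the probes were well above background on an array, and no spot was saturated. All 11 probes of the 6 members were well above background on all 8 arrays, so each of the 6 passed the filter on dim probes without relying on 1 genotype. The WT arrays shared 1 slide and the KO arrays a different one, so that genotype and slide cannot be told apart in any comparison here. In bulk RNA of this kind, fewer cells of a type and less RNA per cell cannot be told apart either.

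Of the 6 members measured, Bcl2 rose and Bcl2l2 fell in KO glands at an adjusted p under 0.05, and the other 4 did not pass the test. Over all 14137 genes, 2332 passed (16.5%), 1070 of them higher (7.57%) and 1262 lower (8.93%) in KO glands, and the 2 calls among 6 members are to be read against that share. By their means, 4 members were higher and 2 lower in KO glands, where 47.7% of all genes were higher. The median log2 fold change, KO minus WT, was 0.52 over the 4 guardians, 0.06 over the 2 pore formers and -0.02 over all genes tested. None of the members differed by 2-fold, a size that 4.37% of all genes reached together with an adjusted p under 0.05. In absolute log2 fold change, of which the median over all genes was 0.27, the guardians lay between the 69.6th (Bcl2l2) and the 82.4th percentile (Bcl2l1) of all genes tested, Bax at percentile 42.1 and Bak1 at 19.4. KO and WT values did not overlap for 2 members, as for 24.1% of all genes (11.3% with KO higher and 12.9% with KO lower). The count of genes called over the whole array depended on single samples. It was 774 without WT2, 976 without WT3, 728 without KO1, 946 without KO2 and 521 without KO3, and the count of members called moved between 0 (without KO3) and 4 (without WT1 or without KO4). It was 1 without WT2, WT3, WT4, KO1 or KO2.

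**Figure D1:**
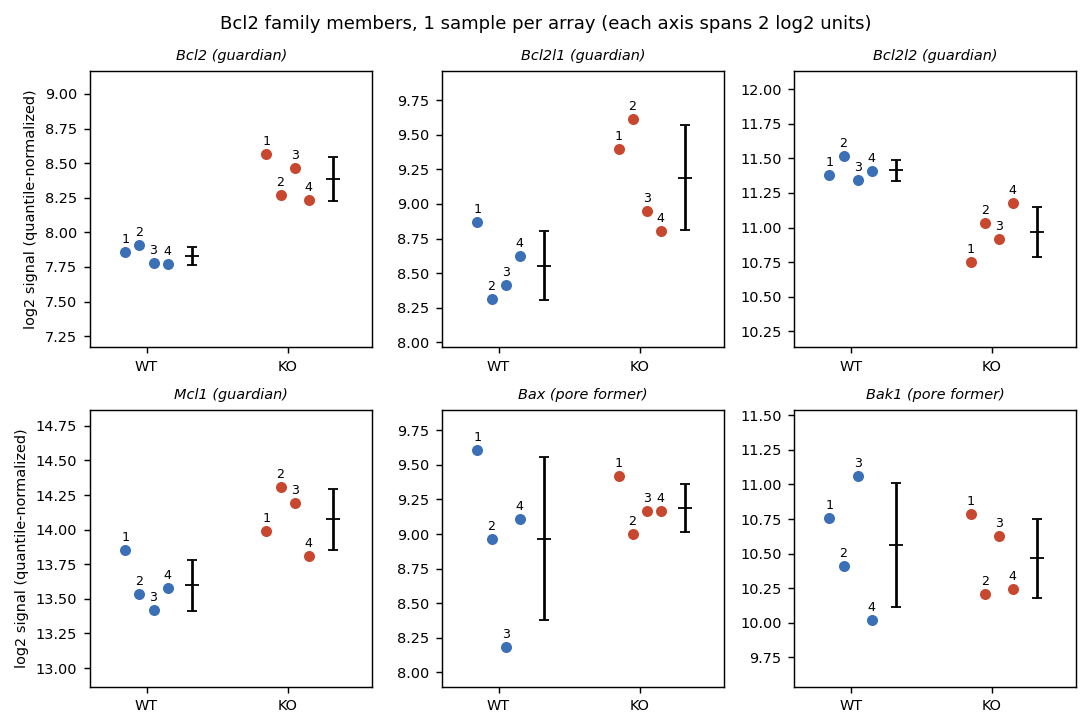
Log2 signal (vertical axis, each panel spanning 2 log2 units) of the 6 members in each WT (blue) and KO (red) sample, numbered by replicate, with the mean and SD (n = 4) beside the points. The genotypes separate for Bcl2, with KO higher, and for Bcl2l2, with KO lower, while Bcl2l1 and Mcl1 overlap through WT1 and KO4 and the WT values of Bax and Bak1 are the widest.

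The 2 guardians that passed the test moved in opposite directions, and the stretch before the transcription start of each is shown to set them side by side. Both sequences are from the RefSeq annotation of GRCm38.p6, cover the 250 bases before the start, and are written 5′ to 3′ on the strand of the gene. The capitals mark GGGCGG, the GC box bound by Sp1-type factors, on either strand, where it reads CCGCCC.

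Bcl2, chr1:106714291-106714540, minus strand: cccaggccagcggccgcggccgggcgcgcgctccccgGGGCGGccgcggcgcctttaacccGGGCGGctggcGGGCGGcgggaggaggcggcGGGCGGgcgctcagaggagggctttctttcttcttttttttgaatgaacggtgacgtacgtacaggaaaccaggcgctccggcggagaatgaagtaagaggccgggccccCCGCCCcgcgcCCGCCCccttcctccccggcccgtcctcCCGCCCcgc

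Bcl2l2, chr14:54883175-54883424, plus strand: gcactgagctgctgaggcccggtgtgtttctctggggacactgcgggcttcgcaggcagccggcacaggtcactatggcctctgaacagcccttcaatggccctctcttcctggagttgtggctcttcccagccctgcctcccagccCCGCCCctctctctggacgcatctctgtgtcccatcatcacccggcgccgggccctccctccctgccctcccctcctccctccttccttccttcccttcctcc

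The Bcl2 stretch held 7 GC boxes and was 74.8% G and C, and the Bcl2l2 stretch held 1 and was 66% G and C, against a median of 52.4% over all promoters. A GC box occurred in 32.7% of all 250-base stretches. TTCNNNGAA, the letters to which STAT factors bind, were searched on both strands and were in neither stretch, and occurred in 7.02% of all. In 300-base stretches around the start, Mcl1 held 1 GC box, Bax 3, Bok 1, and Bak1 and each Bcl2l1 stretch 0. A GC box occurred in 35.7% of all 300-base stretches. Mcl1 and Bcl2l1 were higher in KO glands by their means, and a link between GC boxes and direction was not tested. These matches describe the letters only and were not set against binding.

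Bcl2 encodes the founding guardian of the family. Its log2 signal was 7.86, 7.91, 7.78 and 7.77 in WT samples 1 to 4 and 8.56, 8.27, 8.47 and 8.23 in KO samples 1 to 4. All KO samples lay above all WT samples, with a gap of 0.33 between the nearest pair, and the WT samples were close together. The mean rose from 7.83 ± 0.06 to 8.38 ± 0.16 (SD, n = 4 each), a log2 fold change of 0.55 (SE 0.11, 95% confidence interval 0.31 to 0.80) or 1.47-fold, with an adjusted p of 0.0175 in limma. The exact permutation test over the 70 ways to relabel the samples gave p = 0.0286 (two-sided), the smallest that 4 against 4 allows. Without KO3 the difference was 0.53 and the adjusted p 0.0576.

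The rise of Bcl2 rested on 1 of its 2 probes. The second probe, designed on another RefSeq transcript of the gene, gave 7.82, 7.71, 7.57 and 7.55 in WT samples and 7.88, 7.65, 7.72 and 7.80 in KO samples. These groups overlapped, and the log2 fold change was 0.10 (95% confidence interval -0.15 to 0.35, adjusted p = 0.542 over all probes in limma). The first probe minus the second was 0.03, 0.20, 0.21 and 0.22 in WT samples and 0.68, 0.62, 0.75 and 0.43 in KO samples, so the 2 probes parted further in every KO sample. Their changes differed by 0.45 (exact permutation test, two-sided p = 0.0286, or 0.172 after Benjamini-Hochberg adjustment over the 6 probe pairs compared). With the 2 probes averaged, the difference of Bcl2 was 0.33 with an adjusted p of 0.0545 in limma.

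**Figure D2:**
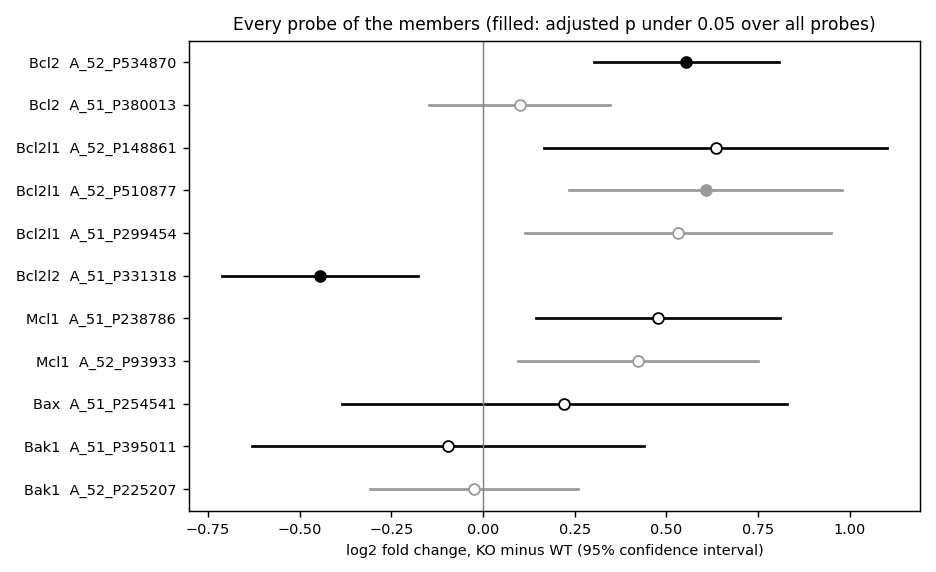
Log2 fold change, KO minus WT (horizontal axis), with its 95% confidence interval for each of the 11 probes of the members, the probe used for a gene in black and its other probes in grey; filled points have an adjusted p under 0.05 over all probes. The 2 Bcl2 probes part (0.55 and 0.10), the 3 Bcl2l1 probes and the 2 Mcl1 probes all lie above 0, and the only probe with its whole interval below 0 is that of Bcl2l2.

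Bcl2l2 encodes Bcl-w and was the member that fell. Its only probe gave a log2 signal of 11.38, 11.52, 11.34 and 11.41 in WT samples and 10.75, 11.04, 10.92 and 11.17 in KO samples. All KO samples were below all WT samples, with a gap of 0.17, and KO4 was the nearest to the WT samples. The mean was 11.41 ± 0.08 in WT and 10.97 ± 0.18 in KO (SD, n = 4 each), a log2 fold change of -0.44 (SE 0.11, 95% confidence interval -0.70 to -0.18), so that WT was 1.36-fold higher (adjusted p = 0.0356 in limma, exact permutation p = 0.0286). The direction held without any 1 sample, with values from -0.51 to -0.37. The call did not: the limma adjusted p was 0.0938 without WT2, 0.0689 without WT3, 0.0608 without WT4, 0.0832 without KO1, 0.0699 without KO2 and 0.0970 without KO3.

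Bcl2l1, which encodes Bcl-xL, had the highest mean difference of the members and did not pass the test. Its log2 signal was 8.87, 8.31, 8.41 and 8.63 in WT samples and 9.40, 9.62, 8.95 and 8.80 in KO samples. The groups overlapped by 0.07, through WT1 and KO4 alone. The means were 8.56 ± 0.25 and 9.19 ± 0.38 (SD, n = 4 each), a log2 fold change of 0.63 (SE 0.21, 95% confidence interval 0.16 to 1.10; adjusted p = 0.0647 in limma, exact permutation p = 0.0571). The limma adjusted p was 0.0456 without WT1 and 0.0425 without KO4, where the differences were 0.74 and 0.76.

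The other 2 Bcl2l1 probes gave similar differences. One gave 6.66, 6.37, 6.46 and 6.82 in WT samples and 7.43, 7.40, 7.04 and 6.88 in KO samples, with no overlap, and its log2 fold change of 0.61 passed the limma test over all probes (adjusted p = 0.0422). The third had a difference of 0.53 (adjusted p = 0.0806), and the probe used for the gene had an adjusted p of 0.0684 in that fit. Over the 8 arrays the 3 probes were correlated at r between 0.943 and 0.963, a description of probes read on the same arrays.

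Mcl1, a guardian with a short-lived protein, did not pass the test either. Its log2 signal was 13.85, 13.54, 13.42 and 13.58 in WT samples and 13.99, 14.31, 14.19 and 13.81 in KO samples. KO4 was below WT1 by 0.05 and the groups were otherwise apart. The means were 13.60 ± 0.18 and 14.07 ± 0.22 (SD, n = 4 each), a log2 fold change of 0.48 (SE 0.14, 95% confidence interval 0.15 to 0.81; adjusted p = 0.0547 in limma, exact permutation p = 0.0571). Its second probe gave 11.31, 11.22, 11.09 and 11.55 in WT and 11.56, 12.01, 11.61 and 11.69 in KO samples, with no overlap, and a difference of 0.42 (adjusted p = 0.0773 over all probes). As for Bcl2l1, the call depended on the same 2 samples, with a limma adjusted p of 0.0334 without WT1 (difference 0.56) and 0.0379 without KO4 (difference 0.57).

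The pore formers did not differ beyond the spread between samples. Bax gave a log2 signal of 9.61, 8.96, 8.19 and 9.11 in WT samples and 9.42, 9.003, 9.17 and 9.16 in KO samples. WT1 was the highest and WT3 the lowest of all 8, and the KO samples lay between them. The means were 8.97 ± 0.59 and 9.19 ± 0.17 (SD, n = 4 each), a log2 fold change of 0.22 (SE 0.27, 95% confidence interval -0.39 to 0.84; adjusted p = 0.583 in limma, exact permutation p = 0.543). The sign turned without WT3, where the difference was -0.038. The interval leaves room for a fall of 0.39 or a rise of 0.84, so a change of the size seen for Bcl2 was not detectable in Bax with 4 samples a group.

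Bak1, the other pore former, gave 10.76, 10.41, 11.06 and 10.02 in WT samples and 10.78, 10.21, 10.63 and 10.25 in KO samples, with the KO samples inside the WT range. The means were 10.56 ± 0.45 and 10.47 ± 0.28 (SD, n = 4 each), a log2 fold change of -0.09 (SE 0.24, 95% confidence interval -0.63 to 0.44; adjusted p = 0.798 in limma, exact permutation p = 0.743). Without WT3 it was 0.071. Its second probe had a difference of -0.02 (adjusted p = 0.911 over all probes), and the 2 Bak1 probes did not follow each other over the 8 arrays (r = -0.11).

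Probes for Bcl2, Bcl2l1 and Bax were each printed at 10 spots of every array, of which 8 to 10 were kept for Bcl2 and all for the others. The median SD between spots of 1 array was 0.042 for Bcl2, 0.054 for Bcl2l1 and 0.040 for Bax. The SD between WT samples was 0.06, 0.25 and 0.59 for these genes, and between KO samples 0.16, 0.38 and 0.17. The low Bax signal of WT3 was thus seen at all of its spots, which lay between 8.15 and 8.24, while those of WT1 lay between 9.54 and 9.64. Spots of 1 array share the labelled RNA and are no replicates of a genotype.

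**Figure D3:**
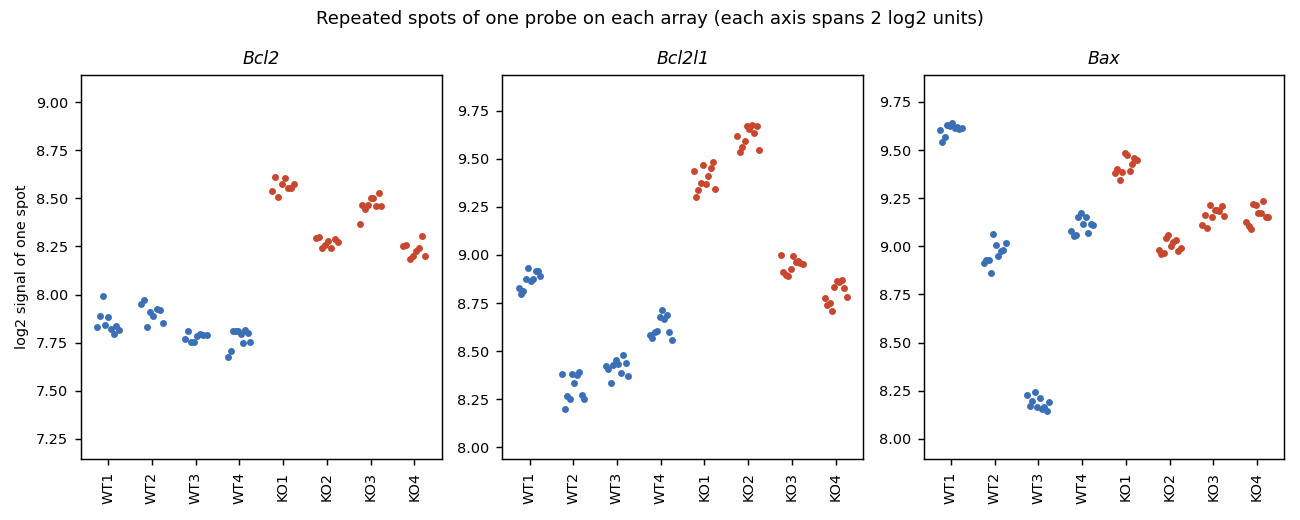
Log2 signal (vertical axis, each panel spanning 2 log2 units) of every spot kept of the Bcl2, Bcl2l1 and Bax probes, by array, with WT in blue and KO in red. Spots of 1 array lie close together, with a median SD of 0.040 to 0.054, and the wide spread of Bax among WT samples lies between arrays.

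BH3-only genes encode the proteins that set guardians and pore formers against each other. All 8 listed were tested, of which 2 rose, none fell and 6 did not pass the test, with a median log2 fold change of 0.41. Over all genes tested, 7.57% rose and 8.93% fell. Bik, whose protein binds guardians, had a log2 signal of 8.78, 7.37, 8.25 and 7.74 in WT samples and 9.99, 9.66, 10.16 and 9.51 in KO samples. It rose by 1.80 (SE 0.30, adjusted p = 0.0120 in limma), with no overlap, and kept its call without any 1 sample. Bcl2l11, which encodes Bim, a partner of all 4 guardians, gave 10.25, 9.45, 9.85 and 10.01 in WT samples and 10.75, 11.12, 10.53 and 10.52 in KO samples, also with no overlap. It rose by 0.84 (SE 0.20, adjusted p = 0.0290), and the limma adjusted p was between 0.0620 and 0.0696 without WT2, WT3, KO1, KO2 or KO3. It was 0.0613 by the methods' t-test after adjustment.

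The other BH3-only genes did not pass. Bmf, which binds guardians and is linked to the loss of cell attachment, had a difference of 0.99 (adjusted p = 0.0584 in limma). It passed in 4 of 17 alternatives, among them the replicate number as a block (0.0452) and without WT1 (0.0268). The limma adjusted p reached 0.140 without KO3, and it was 0.116 by the methods' t-test after adjustment. Bbc3 and Pmaip1, which encode the p53 targets Puma and Noxa, had differences of 0.57 (adjusted p = 0.187) and -0.31 (adjusted p = 0.334). The differences were 0.24 (adjusted p = 0.264) for Bad and -0.41 (adjusted p = 0.271) for Bid, the BH3 protein cleaved by caspase-8. Hrk was well above background on all WT arrays and on no KO array, so its KO level is only a bound. The WT mean lay 1.15-fold above that bound, but the groups overlapped and Hrk did not pass (adjusted p = 0.123 in limma). With normexp its difference was -0.046 (adjusted p = 0.734 in limma).

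Calls among other members of the wider family and the genes around the pore are given beside the share of 16.5% called over all genes, and in lists this small a single call more or less is not a result about the list. Among the other relatives of Bcl2, 0 of the 6 tested passed in either direction (median log2 fold change -0.24). They include Bcl2a1b (-0.24, adjusted p = 0.363 in limma) and Bcl2a1c (-0.29, adjusted p = 0.191), guardians of blood cells whose near-identical copies a probe may not separate. Of 5 genes tested for the turnover of Mcl-1 and its relatives, Fbxw7, a ubiquitin ligase subunit that targets Mcl-1, rose by 0.47 (adjusted p = 0.0395), and none fell. The 5 outer membrane partners, including the Vdac channels, had no call and a median of 0.03.

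Downstream of the pore, 1 of 8 genes tested rose and 2 fell, against 7.57% and 8.93% of all genes, and so small a list does not set these shares apart. Apaf1, the scaffold on which cytochrome c assembles caspase-9, rose by 0.49 (adjusted p = 0.0331 in limma, 0.0638 with the replicate block). Diablo, which encodes a caspase activator released with cytochrome c, fell by 0.38 (adjusted p = 0.0368, 0.0557 with the replicate block), and Endog, a mitochondrial nuclease, fell by 0.71 (adjusted p = 0.0300). Zmat3, a p53 target that encodes an RNA-binding protein, fell by 0.47 (adjusted p = 0.0190) and was the only call among 6 genes tested of p53 and its targets. Of 5 genes for the STAT input to guardian expression, Socs3, a feedback inhibitor of STAT3 signalling, rose by 2.05 (adjusted p = 0.0215) and Cebpd, a STAT3 target, by 1.32 (adjusted p = 0.0122). Stat3 itself had a difference of 0.73 (adjusted p = 0.0753) and Stat5a one of -0.72 (adjusted p = 0.0635). Of the genes of this and the previous paragraph that passed, only Cebpd kept its call without any 1 sample. The call of Fbxw7 was lost without any 1 sample but WT4, that of Apaf1 without WT2, WT3, KO1, KO2 or KO3, that of Diablo without any but WT4, that of Endog without any but WT1 or KO4, that of Zmat3 without WT3, KO1 or KO3, and that of Socs3 without WT2 or KO3, with limma adjusted p values up to 0.104, 0.0943, 0.0957, 0.0850, 0.0544 and 0.0581. By the methods' t-test after adjustment, p was 0.0571 for Fbxw7, 0.0589 for Endog and 0.0561 for Socs3. With the probes of a gene averaged, the limma adjusted p of Fbxw7 was 0.0915, and with no filter on dim probes 0.0545, and with normexp that of Apaf1 was 0.0505.

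**Figure D4:**
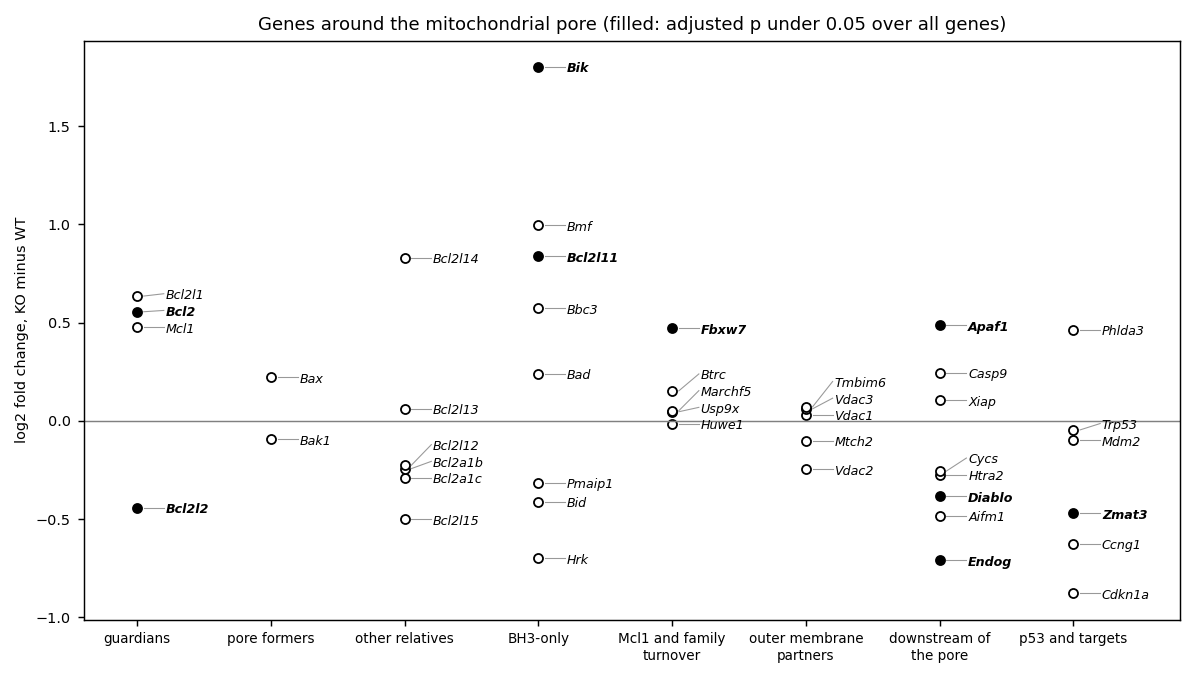
Log2 fold change, KO minus WT (vertical axis), of the tested genes of the mitochondrial pathway in 8 groups along the horizontal axis; filled points and bold names have an adjusted p under 0.05 over all genes. Bcl2, Bik, Bcl2l11, Fbxw7 and Apaf1 are the filled points above 0, and Bcl2l2, Diablo, Endog and Zmat3 those below; the KO value of Hrk was not well above background.

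Calls among cell type markers are to be read against all genes tested, of which 7.57% rose and 8.93% fell. In lists this small a single call is not a result about the cell type. Of the luminal markers, 2 of 8 tested passed, both higher in KO glands (Krt18 and Epcam). Their list was mixed: 5 of its 8 genes were higher in KO by their means and the median log2 fold change was 0.17, while Elf5 had a difference of -0.36 (adjusted p = 0.103 in limma), Lalba one of -0.45 (adjusted p = 0.197) and Csn2 one of -0.01 (adjusted p = 0.935). The summed linear signal of the list, in which the brightest probes weigh most, ran from 845245 to 881912 in WT and from 883757 to 926886 in KO samples. Wap, the brightest, gave 18.35, 18.44, 18.44 and 18.35 in WT and 18.47, 18.44, 18.47 and 18.47 in KO samples. It did not pass (adjusted p = 0.584 in limma), and its values recurred between arrays after quantile normalization. The separation of these sums, in which Wap weighs most, is therefore not a result about luminal cells. Of the neutrophil markers, 2 of 4 tested passed, both higher in KO (Ngp and Camp). Neither was well above background on any WT array, so both passed the filter through the KO arrays alone. All 4 were higher in KO by their means, and the list had sums of 1561 to 7518 in WT and 7688 to 18654 in KO samples. These sums come mostly from S100a8 (adjusted p = 0.356 in limma) and S100a9 (adjusted p = 0.0565), which did not pass. Of the T cell markers, 2 of 6 passed, both lower in KO (Cd3e and Cd4), with sums of 544 to 1485 and 582 to 776. None of the 6 was higher in KO by its mean (median log2 fold change -0.32). For fibroblasts 1 of 6 passed, higher in KO (Dcn), with sums of 174753 to 219296 and 215565 to 317453. All 6 were higher in KO by their means (median log2 fold change 0.44). For B cells 1 of 4 passed, higher in KO (Cd79b), while Cd79a had a difference of -0.72 (adjusted p = 0.0518 in limma), with sums of 370.8 to 541.7 and 542.4 to 955, and for adipocytes 1 of 5, also higher, with sums of 158721 to 222212 and 215378 to 300640. None of the markers tested of basal cells, macrophages, plasma cells or endothelium passed. The glands carried the markers of the labelled tissue, and the part of these cell types in the differences of Bcl2 and Bcl2l2 was not tested.

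The genes whose log2 signal followed each member most closely over the 8 arrays are given as a description, since genotype and slide are shared by all points. They were Cemip2 (r = 0.985) and Cxcl12 (r = 0.984) for Bcl2, Jtb (r = 0.994) and Cibar2 (r = 0.991) for Bcl2l2, Jmjd1c (r = 0.993) and Crebl2 (r = 0.990) for Bcl2l1, and Picalm (r = 0.990) and Zfp647 (r = 0.982) for Mcl1. For the pore formers they were Wdr60 (r = 0.941) and Olfr1394 (r = 0.923) for Bax and Atg4b (r = 0.988) and Fcmr (r = 0.982) for Bak1. Among the 14136 other genes, r was above 0.9 for 567 genes with Bcl2l2, for 197 with Bcl2, for 180 with Mcl1, for 102 with Bcl2l1, for 93 with Bak1 and for 4 with Bax.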

How the data were processed

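Mammary gland RNA of 8 dams, 4 WT and 4 KO, was labelled with Cy3 and read on 8 one-colour Agilent arrays. Groups and replicate numbers came from the sample titles. The authors deposited, per array, the spot intensities of Agilent Feature Extraction 10.7, from which the software had subtracted background, with no scaling across arrays. Log2 values that the authors quantile-normalized in GeneSpring followed their arrays at r of at least 0.9985, had a median of 6.32 in each column and served as an alternative.

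Processed intensities of the 43379 non-control spots per array were put on the log2 scale, spots marked as outliers (64 to 100 per array) were left out, and the arrays were quantile-normalized in limma 3.58.1 (R 4.3.3). Spots of a probe were averaged, giving 41174 probes, of which 27479 matched a symbol by accession in a RefSeq gene table (GRCm38.p6). The array design names another build, so no gene coordinates were joined to probes. A gene was represented by its brightest probe among those well above background on all 4 arrays of a genotype. Genes were tested with lmFit and eBayes, with Benjamini-Hochberg adjustment over all 14137 genes, and probes in the same way over 27654 probes. Calls have an adjusted p under 0.05. For a probe that no array of 1 genotype put well above background, the fold is a bound against the lowest signal well above background on each array. The test was checked on simulated data.

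The members and gene lists were chosen with earlier results of these data known. Named genes are all members with every probe, called genes of the pathway lists, Bcl2a1 and BH3-only genes also where not called, and the 2 genes nearest to each member. Same-numbered WT and KO samples deviated from their group means with r = 0.220, 0.165, 0.304 and 0.283. The mean of -0.079 for different numbers follows largely from taking deviations from group means, and is no separate evidence of pairing. The own number was the closest match for WT3, WT4, KO2 and KO4, and not for WT1, WT2, KO1 or KO3. The sample titles state no pairing, so a fit with the replicate block was run only as an alternative. Other alternatives were 75th percentile scaling, normexp (offset 50, on median spot signals, although mean signals had been planned), the authors' table, other filters on dim probes, the mean of a gene's probes, array weights, the methods' t-test with adjustment over all genes, and leaving out each sample. The number of arrays limits the precision.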

Additional observations from a re-analysis of the deposited data

Results flagged for a closer look

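Socs3 was set apart within the KO group. Its log2 signal was 13.29 in KO1 and between 11.73 and 11.81 in the other 3 KO samples, so that the gap to the nearest sample was 0.945 of the range of the group. The WT mean was 10.10, below all KO samples. This was 1 of 56 groups of 4 samples compared, of which chance sets apart about 1 in 20.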

How the results depend on the processing

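Over 18 alternatives, Bcl2, Bcl2l1, Bcl2l2 and Mcl1 kept their direction. The other filters on dim probes, the replicate block, the methods' t-test and the exact permutation test left these fold changes unchanged. The mean of a gene's probes did the same for Bcl2l2, which has 1 probe. Those alternatives therefore say nothing about direction. With array weights 3842 genes and 4 members were called, with Bcl2l1 at 0.66 (limma adjusted p = 0.0387) and Mcl1 at 0.57 (0.0177), and the methods' t-test after adjustment called 1377 genes. With the mean of a gene's probes Bcl2 had 0.33 (0.0545) and Mcl1 0.45 (0.0479), and with normexp Mcl1 had 0.46 (0.0443). Leaving out single samples moved the genes called between 521 and 3072, the members called between 0 and 4, and the log2 fold change between 0.49 and 0.61 for Bcl2, 0.49 and 0.76 for Bcl2l1, -0.51 and -0.37 for Bcl2l2, 0.40 and 0.57 for Mcl1, -0.038 and 0.44 for Bax and -0.28 and 0.071 for Bak1, whose signs turned without WT3 (Bax -0.038, Bak1 0.071). The cause was not tested. With the replicate block 2759 genes were called and no member's call changed (adjusted p 0.0280 for Bcl2, 0.0433 for Bcl2l2, 0.0773 for Mcl1 and 0.0688 for Bcl2l1). The adjusted p ranged from 0.00664 to 0.0576 for Bcl2, 0.0387 to 0.162 for Bcl2l1, 0.0167 to 0.0970 for Bcl2l2, 0.0177 to 0.136 for Mcl1, 0.199 to 0.906 for Bax and 0.377 to 0.986 for Bak1. The Bcl2a1 and BH3-only genes and the called genes of the other pathway lists were put through the same alternatives after their values were seen, with no such run for the rest of the lists or for markers. Of these, Bik and Cebpd kept their calls in all 17 alternatives run.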
